A study of Mus musculus with 6 samples.

Results

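The 10 genes described here encode the enzymes that carry ethanol through acetaldehyde and acetate to acetyl-CoA in the liver. They are the alcohol dehydrogenases Adh1, Adh4 and Adh5, the cytochrome P450 Cyp2e1, catalase (Cat), the aldehyde dehydrogenases Aldh2, Aldh1b1, Aldh1a1 and Aldh3a2, and the acetyl-CoA synthetase Acss2. They were taken by gene symbol from a table of 28880 genes, and all 10 passed the filter on low counts that left 16717 genes for testing. Each symbol matched 1 gene. The rule uses names and no measured value, but the set was proposed with earlier results of these livers known.

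The libraries were made from the livers of 3 Control mice and 3 acute ethanol-exposed mice, all wild-type male C57BL/6J aged 6 to 8 weeks and all labelled as a single batch. The ethanol-exposed mice were fasted for 12 h, received 50% (v/v) ethanol once by oral gavage at 6 g/kg, and were killed 24 h afterwards. The Control mice received no ethanol, and whether they were fasted or given a vehicle is not stated, so ethanol, fasting and gavage cannot be told apart in this comparison. Each library is labelled as its own replicate, and p-values measure the spread between these 3 livers per group. The transcripts were measured a day after the dose, and neither ethanol nor acetaldehyde levels nor enzyme activity are part of these data.

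In the liver, cytosolic alcohol dehydrogenase oxidizes most ethanol to acetaldehyde and passes the electrons to NAD+. CYP2E1 in the endoplasmic reticulum does the same with NADPH and oxygen, taking its electrons from the reductase POR, and catalase can do so in peroxisomes where hydrogen peroxide is available. Acetaldehyde, the reactive and toxic intermediate, is oxidized to acetate mainly by mitochondrial ALDH2, and acetate is joined to coenzyme A by acetyl-CoA synthetases or leaves the liver in the blood. CYP2E1 protein is well known to be stabilized by its substrates, so its transcript is only one measure of its abundance.

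The libraries held 60514417 to 74210869 counts, so counting error was small for every enzyme gene, of which Adh4 in ethanol replicate 3 had the fewest counts (576). CPM values here are counts expressed relative to the library total after scaling by the TMM method, which assumes that most genes do not change. The TMM factors were 0.768 to 0.836 in the ethanol libraries and 1.26 to 1.27 in the Control libraries, and the 1000 most abundant genes took 80.7% to 82.9% of the counts in the former and 73.7% to 74.5% in the latter. Scaling by library size alone moved the median log2 fold change of all tested genes from -0.04 to -0.71, so for each enzyme gene whose direction depends on this choice the other value is given beside it. Ethanol replicate 3 stood apart from the other ethanol libraries: on the second principal component, which held 14.8% of the variance, it lay at -53.73, against 19.92 and 30.54 for ethanol replicates 1 and 2. It was the lowest ethanol library for 9 of the 10 enzyme genes, and values without it are given beside many of the results. The share of all genes for which it was the lowest was not computed. The 15 hepatocyte markers in the table, among them Alb and Apoa1, included 5 called higher and none called lower in ethanol (0 higher by library size alone, 2 without ethanol replicate 3 and 3 without any 1 of the Control libraries), and their summed FPKM was 68445 to 69654 in ethanol and 59363 to 66052 in Control. Of other cells, 4 of 5 erythroid markers tested were called higher (summed FPKM 532 to 761 against 201 to 250), 4 of 11 sinusoidal endothelial markers were called lower and 1 higher (19.3 to 34.3 against 42.2 to 47.5), and of 12 Kupffer cell markers 1 was called higher with TMM but 5 lower and 0 higher by library size alone (70.8 to 87.0 against 118.8 to 135.5). No marker of these lists was at 0 in all 6 libraries. The part of these shifts in the results below was not tested. In bulk liver RNA, fewer cells of a type and less RNA per cell cannot be told apart.

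Of the 10 enzyme genes, 1 was upregulated (Cyp2e1) and 3 were downregulated (Acss2, Adh4 and Aldh1b1) in edgeR's quasi-likelihood test. A call required a change of more than 1 on the log2 scale and a p below 0.05 after Benjamini-Hochberg adjustment across the 16717 genes. By the same rule 10.4% of all genes tested were called higher and 13.8% lower. By library size alone, 846 of all genes were called higher and 5385 lower, and of the enzyme genes 0 higher and 4 lower, with Cat joining the other 3 and Cyp2e1 at 0.79, under the fold threshold. At the adjusted p alone, 4 enzyme genes were higher and 4 lower, beside 21.5% of all genes in the upward and 21.5% in the downward direction. Of the 4 higher, Adh1 and Aldh2 did not pass without ethanol replicate 1 (adjusted p = 0.0595 and 0.0542), Control replicate 2 (0.0739 and 0.0862) or Control replicate 3 (0.074 and 0.0896). The ethanol and Control libraries did not overlap for 8 of the 10, while 59.0% of all genes showed no overlap in either direction. The median log2 fold change of the 10 genes was -0.05, close to the -0.04 of all genes. Called genes lay at the first step (Cyp2e1 and Adh4), the second (Aldh1b1) and the last (Acss2).

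**Figure D1:**
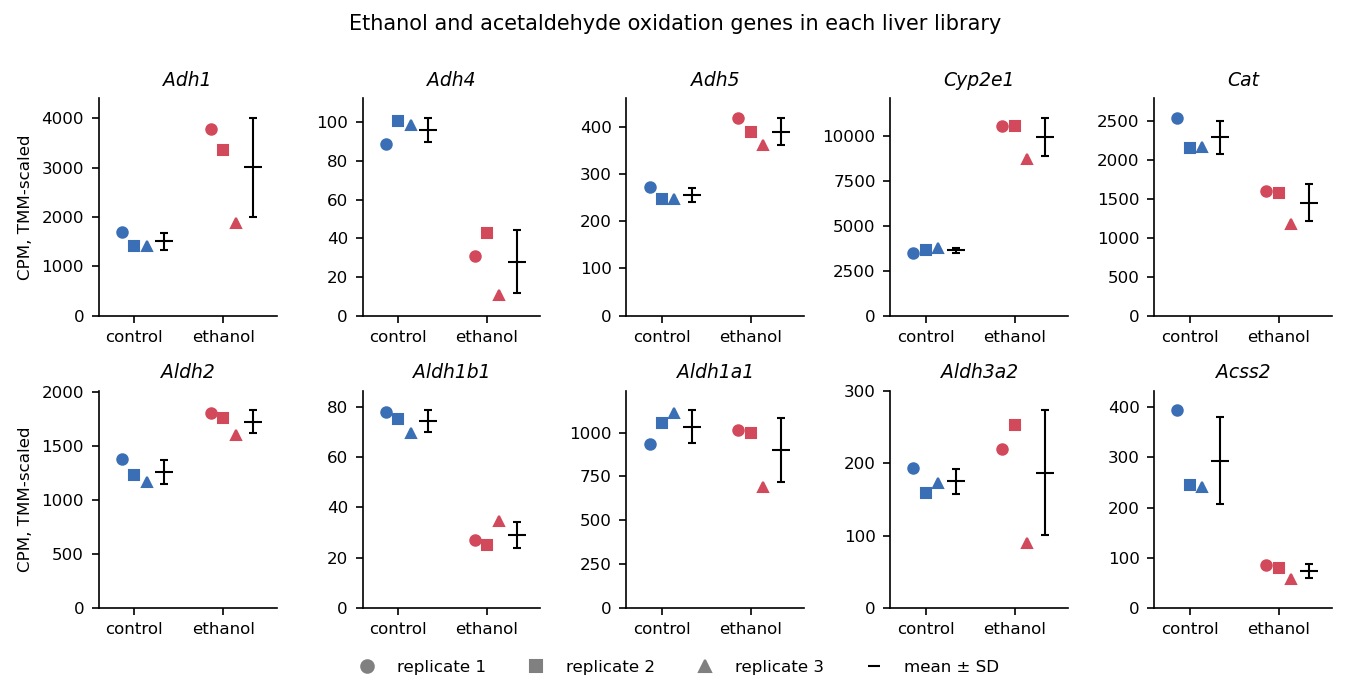
TMM-scaled CPM (vertical axes, each starting at 0) of the 10 enzyme genes in the 3 Control and 3 ethanol libraries, 1 point per library, with the mean and SD of each group beside the points. Cyp2e1 separates upward (8729 to 10566 CPM against 3502 to 3767), Acss2, Adh4 and Aldh1b1 separate downward, and Aldh1a1 and Aldh3a2 overlap.

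The sequences just before the transcription starts of the 4 called genes are shown because these genes moved in opposite directions and because the letters of common promoter elements are placed differently in each. They are the 250 bases before the start in RefSeq (GRCm38.p6), all on the plus strand, at chr7:140763569-140763818 for Cyp2e1, chr3:138415247-138415496 for Adh4, chr4:45798772-45799021 for Aldh1b1 and chr2:155517793-155518042 for Acss2. Capitals mark 4 motifs read on either strand: the CCAAT box, which reads ATTGG where it lies on the minus strand, the TATA box (TATAAA), the GC box (GGGCGG, or CCGCCC on the minus strand) and the nuclear receptor half-site (AGGTCA).
Cyp2e1: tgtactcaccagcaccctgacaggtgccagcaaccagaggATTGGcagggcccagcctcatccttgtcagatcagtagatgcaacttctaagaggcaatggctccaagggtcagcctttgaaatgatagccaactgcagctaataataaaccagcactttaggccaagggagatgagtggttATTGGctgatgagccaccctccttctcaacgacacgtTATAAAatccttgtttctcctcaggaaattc
Adh4: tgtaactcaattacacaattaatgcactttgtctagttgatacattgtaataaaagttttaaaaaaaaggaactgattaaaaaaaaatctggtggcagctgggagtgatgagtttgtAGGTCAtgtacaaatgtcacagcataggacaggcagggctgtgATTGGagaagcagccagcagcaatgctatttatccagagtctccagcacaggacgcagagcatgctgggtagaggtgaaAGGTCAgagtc
Aldh1b1: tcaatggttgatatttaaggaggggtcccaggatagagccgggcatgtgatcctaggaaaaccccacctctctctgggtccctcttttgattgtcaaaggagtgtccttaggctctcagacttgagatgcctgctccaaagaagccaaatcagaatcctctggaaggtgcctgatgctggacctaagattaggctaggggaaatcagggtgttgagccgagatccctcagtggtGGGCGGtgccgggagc
Acss2: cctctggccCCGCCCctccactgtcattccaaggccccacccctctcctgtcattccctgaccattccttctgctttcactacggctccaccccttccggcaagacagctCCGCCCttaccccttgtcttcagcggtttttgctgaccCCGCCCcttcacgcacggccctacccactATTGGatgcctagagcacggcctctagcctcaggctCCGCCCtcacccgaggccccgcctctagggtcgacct

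The Cyp2e1 sequence holds the TATA box letters TATAAA from position -31 and the CCAAT letters at -210 and -68, counted back from the base before the start. The Adh4 sequence holds CCAAT at -90 and the half-site AGGTCA at -133 and -11, with no TATAAA. Acss2 lies behind a GC-rich stretch (64% G or C) with GC box letters at -241, -140, -102 and -37 and CCAAT at -73, and the match at -102 overlaps one to the antioxidant response element TGACNNNGC at -107. Aldh1b1 has 1 GC box match, at -16, and its CCAAT letters lie after the start, at 30. Over all 32851 RefSeq promoters of 300 bases (250 before and 50 after the start), CCAAT was present in 37.4%, TATAAA in 13.6%, GGGCGG in 35.7%, AGGTCA in 16.3% and TGACNNNGC in 12.4%. The sterol regulatory element searched as TCACNCCAC, present in 1.24% of promoters, was not found in these letters in any of the 9 enzyme genes that had an entry. A match is a description of the letters and not a binding site.

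The first step is shared by 3 alcohol dehydrogenase genes that lie in 1 run of 238 kb on chromosome 3 together with Adh7, Adh6a and Adh6b, all on the plus strand. Coordinates of genes are given as the deposited table has them, whose build the sources do not give for certain: only 1.99% of its genes share start and end with GENCODE M21 on GRCm38. Adh1 (chr3:137966752-137996459), the class I enzyme that carries most hepatic ethanol oxidation, had 3792, 3350 and 1881 CPM in ethanol replicates 1 to 3 and 1705, 1407 and 1408 CPM in Control. Every ethanol library was above every Control library, and ethanol replicate 3 lay just above the highest of them. The log2 fold change was 1.00 ± 0.26 (SE, n = 3 per group, edgeR adjusted p = 0.0182), which before rounding was 0.9972 and so just under the fold threshold. Without ethanol replicate 3 it was 1.26 ± 0.12, and without Control replicate 1 it was 1.09 (adjusted p = 0.0442), both past the threshold. In the other 4 fits that left out 1 library the adjusted p missed 0.05: 0.0595 without ethanol replicate 1, 0.0537 without ethanol replicate 2, 0.0739 without Control replicate 2 and 0.074 without Control replicate 3, at log2 fold changes of 0.80 to 0.95. Scaling by library size alone gave 0.34 with an adjusted p of 0.318, so a difference of Adh1 relative to the library total was not resolved from the spread between mice.

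Adh4 (chr3:138121227-138129789), a class II enzyme that also oxidizes retinol and works on ethanol at high concentrations, had 30.7, 42.7 and 10.6 CPM in ethanol and 88.9, 100.5 and 98.7 CPM in Control. Control libraries lay close together, while ethanol replicate 3 held 0.288 times the mean of the other ethanol libraries. The transcript fell 3.43-fold (log2 fold change -1.78 ± 0.44, adjusted p = 0.0158). Without ethanol replicate 3 the change was smaller and better resolved (-1.38 ± 0.15, adjusted p = 0.000247). The call was lost by a small margin, with an adjusted p just above 0.05, without ethanol replicate 1 (0.0507), Control replicate 2 (0.0509) or Control replicate 3 (0.0507), at log2 fold changes of -1.84, -1.75 and -1.76.

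Adh5 (chr3:138148854-138161260) encodes the class III enzyme, which acts mainly on glutathione-bound formaldehyde and S-nitrosoglutathione and binds ethanol poorly. It had 417.9, 388.5 and 360.1 CPM in ethanol and 271, 247.6 and 246.5 CPM in Control. The groups did not overlap on this scale and the log2 fold change was 0.61 ± 0.11 (adjusted p = 0.00428), but it was -0.059 by library size alone and -0.22 when libraries were scaled on hepatocyte markers. Its direction therefore depended on the scaling.

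Adh7, the class IV enzyme of the upper digestive tract, had 548, 546 and 175 counts in ethanol and 1416, 1005 and 1034 in Control (log2 fold change -0.91, adjusted p = 0.0852). Adh7 was called lower by library size alone (-1.57, adjusted p = 0.0114) and on hepatocyte markers (-1.69, adjusted p = 0.00798). Adh6b had 12 to 39 counts in ethanol and 2 to 8 in Control, so that it passed the filter on low counts through the ethanol libraries and no fold change is given for it, and Adh6a, with 0 to 13 counts, was not tested. From Adh7 to Adh5 along the chromosome the fitted log2 fold changes of the other 4 genes were -0.91 (Adh7), 1.00 (Adh1), -1.78 (Adh4) and 0.61 (Adh5) on the TMM scale. Part of Adh1 is overlapped on the opposite strand by the predicted gene Gm16559, which had 1498, 2220 and 64 counts in ethanol and 177 to 227 in Control. The sources do not say if reads were counted by strand, and with both genes summed the log2 fold change of Adh1 was 1.01.

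The balance within the cluster could be read without a choice of scaling, since a ratio of 2 genes within a library does not depend on it. The ratio of Adh1 to Adh4 on FPKM (fragments scaled to transcript length and library total) was 80.3, 50.9 and 116 in ethanol and 12.5, 9.10 and 9.26 in Control. Its mean was 8.02 times higher in ethanol, and the lowest ethanol library was above the highest Control library. The ratio of Adh5 to Adh4 was 3.65, 2.44 and 9.17 in ethanol and 0.817, 0.661 and 0.670 in Control, so that Adh4 was the more abundant of this pair in each Control liver and the less abundant in each ethanol liver. The ratio of Adh5 to Adh1 overlapped between the groups (0.0455 to 0.0791 against 0.0656 to 0.0726).

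Cyp2e1 (chr7:140343652-140354900), the ethanol-inducible P450 of the microsomal ethanol-oxidizing system, had the highest FPKM of the 10 genes in every library and was the only one called higher. It had 10566, 10563 and 8729 CPM in ethanol and 3502, 3629 and 3767 CPM in Control. The lowest ethanol library was more than double the highest Control library. The change was 2.74-fold (log2 fold change 1.45 ± 0.13, adjusted p = 0.000296), and it ranged from 1.41 to 1.55 when each library was left out in turn. It stayed positive under each scaling tried but dropped under the fold threshold by library size alone (0.79) and on hepatocyte markers (0.64).

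Catalase (chr2:103284194-103315505), which removes hydrogen peroxide and can use it to oxidize ethanol, went the other way. It had 1597, 1577 and 1176 CPM in ethanol and 2533, 2155 and 2167 CPM in Control. No ethanol library reached a Control library, and the log2 fold change was -0.66 ± 0.16 (adjusted p = 0.0135), short of the fold threshold, and -0.51 without ethanol replicate 3. Library size alone (-1.32) and hepatocyte markers (-1.47) took it past the threshold, in the same direction.

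The opposite movement of these 2 enzymes showed in every liver. The FPKM ratio of Cyp2e1 to Cat was 8.01, 8.11 and 8.99 in ethanol and 1.67, 2.04 and 2.11 in Control, a 4.32-fold difference between the means. Its SD was 0.535 in ethanol and 0.232 in Control, small beside the gap. The ratio of Cyp2e1 to Adh1 was 2.13, 2.67 and 2.77 in Control and 2.88, 3.26 and 4.80 in ethanol, a smaller difference but again without overlap. These ratios are descriptions without a test.

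**Figure D2:**
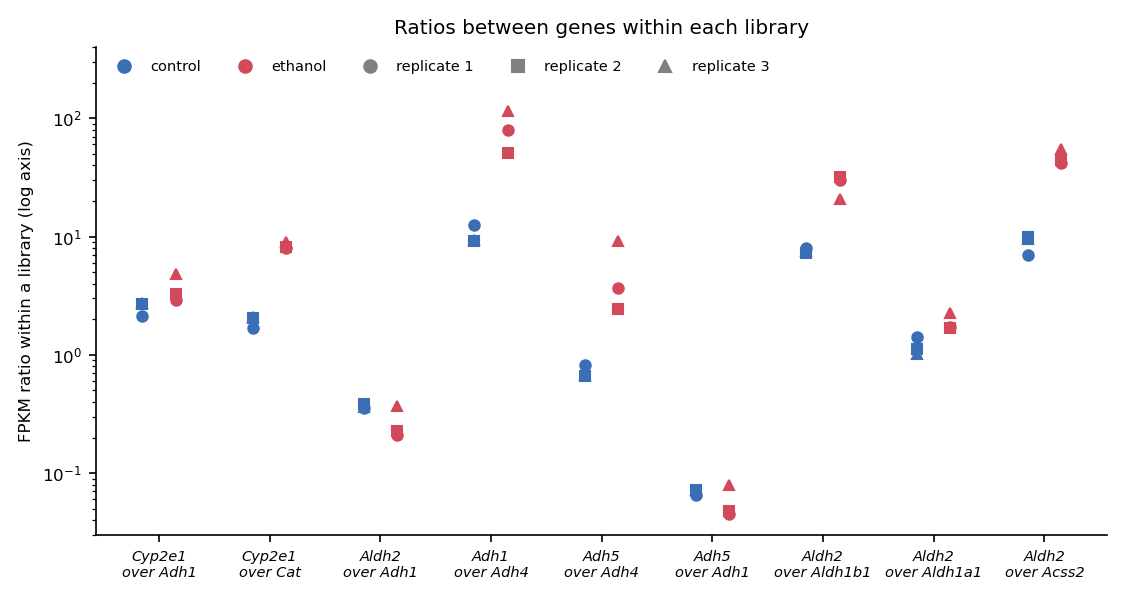
Ratios of the FPKM values of 2 enzyme genes within a library (vertical log axis), 1 point per library, Control in blue and ethanol in red, with the replicate number as the shape. Cyp2e1 over Cat (1.67 to 2.11 against 8.01 to 8.99), Adh1 over Adh4 and Aldh2 over Acss2 separate widely, and Aldh2 over Adh1 and Adh5 over Adh1 overlap.

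At the second step, 4 aldehyde dehydrogenase genes were followed, and the mitochondrial enzymes diverged. Aldh2 (chr5:121704090-121731887), the main acetaldehyde dehydrogenase, had 1813, 1760 and 1609 CPM in ethanol and 1381, 1231 and 1167 CPM in Control. The groups did not overlap on this scale and the log2 fold change was 0.46 ± 0.12 (adjusted p = 0.0188), but library size alone gave -0.21 and hepatocyte markers -0.37, so its direction too depended on the scaling. Its adjusted p missed 0.05 without ethanol replicate 1 (0.0542), Control replicate 2 (0.0862) or Control replicate 3 (0.0896).

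Aldh1b1 (chr4:45799022-45804604) encodes the other mitochondrial enzyme with activity on acetaldehyde. It had 27.0, 24.9 and 34.7 CPM in ethanol and 78.0, 75.4 and 69.7 CPM in Control. It was the 1 enzyme gene for which ethanol replicate 3 was the highest ethanol library. The transcript fell 2.57-fold (log2 fold change -1.36 ± 0.15, adjusted p = 0.00062) and remained called lower under all 21 alternatives, between -2.21 and -1.27. The FPKM ratio of Aldh2 to Aldh1b1 was 30.1, 31.7 and 20.8 in ethanol and 7.93, 7.32 and 7.51 in Control, 3.63 times higher in ethanol.

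The cytosolic and membrane-bound enzymes overlapped between the groups on TMM-scaled CPM. Aldh1a1 (chr19:20470079-20620829), a cytosolic enzyme best known for retinoic acid synthesis that also takes acetaldehyde, had 1013, 998.9 and 689.9 CPM in ethanol and 932.8, 1056 and 1114 CPM in Control (log2 fold change -0.20 ± 0.17, adjusted p = 0.381, and -0.03 without ethanol replicate 3). Relative to the library total it was lower in every ethanol liver, at 100.2 to 157.9 FPKM against 223.5 to 265.4 in Control, with log2 fold changes of -0.86 by library size alone (adjusted p = 0.00682) and -1.03 by limma on TPM (adjusted p = 0.0034). Aldh3a2 (chr11:61114243-61158290), which oxidizes long-chain fatty aldehydes in the endoplasmic reticulum, had 219.3, 252.9 and 90.0 CPM in ethanol and 193.3, 159.2 and 173.5 CPM in Control (0.10 ± 0.34, adjusted p = 0.839). For Aldh3a2 the ethanol livers lay on both sides of Control: replicates 1 and 2 above every Control library and replicate 3 below every one. Without ethanol replicate 3 its log2 fold change was 0.44 (adjusted p = 0.00979), and without ethanol replicate 2 it was -0.18. It was -0.56 by library size alone and -0.68 on hepatocyte markers, so its sign depended on the scaling as well. The FPKM ratio of Aldh2 to Aldh1a1 was 1.72, 1.70 and 2.25 in ethanol and 1.43, 1.12 and 1.01 in Control.

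Acss2 (chr2:155359868-155418900), which joins acetate to coenzyme A in the cytosol and nucleus and is known as a target of sterol regulatory element-binding proteins (SREBPs), was called lower with the most negative fitted log2 fold change of the 10 genes, though not apart from Adh4 within their errors. It had 85.5, 78.7 and 58.0 CPM in ethanol and 393.4, 244.8 and 240.8 CPM in Control. Control replicate 1 stood well above the other Control libraries, and even the lowest Control library was more than double the highest ethanol library. The transcript fell 3.96-fold (log2 fold change -1.98 ± 0.24, adjusted p = 0.00102), with log2 fold changes of -2.11 to -1.72 when each library was left out in turn. It remained called lower under all 21 alternatives. The smallest change among them (-1.34) came from adding the counts of genes that overlap it, chiefly Gss on the opposite strand with 2450 to 4089 counts in ethanol and 3554 to 4092 in Control. The FPKM ratio of Aldh2 to Acss2 was 42.1, 44.4 and 55.0 in ethanol and 6.96, 9.97 and 9.61 in Control, 5.33 times higher in ethanol.

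**Figure D3:**
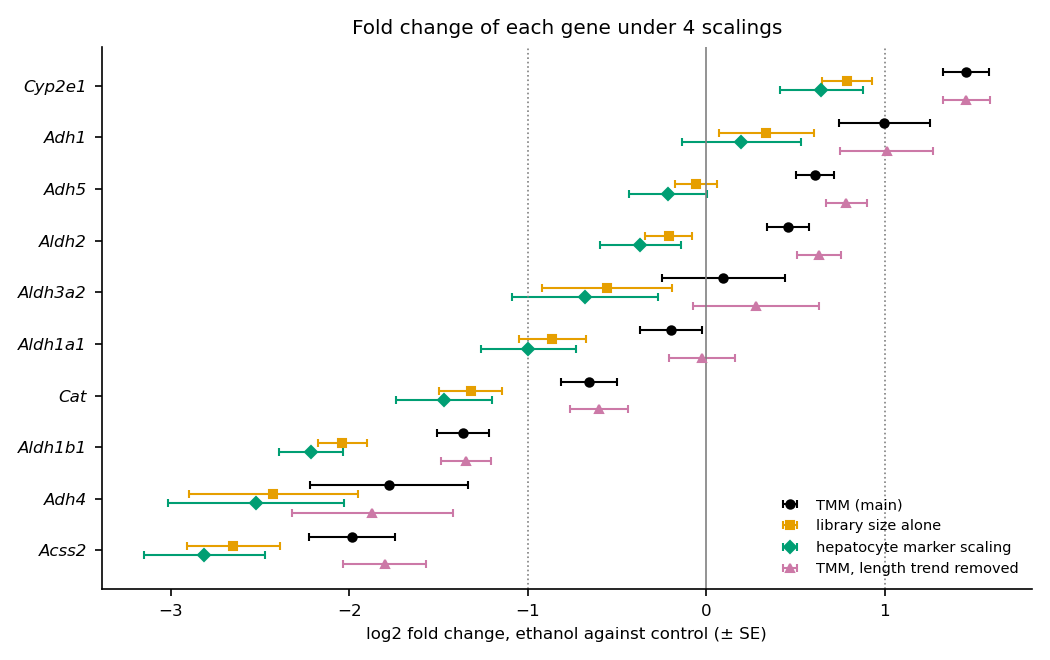
Log2 fold change of each enzyme gene in ethanol against Control (horizontal axis, bars are the SE) under 4 ways of scaling the libraries, with dotted lines at the fold threshold of 1 in both directions. Acss2, Adh4 and Aldh1b1 stay past -1 under all 4, Cyp2e1 and Cat keep their sides of 0, and Adh5 and Aldh2 cross 0 between TMM (0.61 and 0.46) and library size alone (-0.059 and -0.21).

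The order of the enzymes by level was compared on FPKM, which is per length and relative to the library total. In Control livers Cyp2e1 led (1985 ± 67.2 FPKM, mean ± SD, n = 3), followed by Cat (1031 ± 99.9), Adh1 (796 ± 92.9), Aldh2 (290 ± 26.1) and Aldh1a1 (247 ± 21.4). In ethanol livers the order began with Cyp2e1 (3423 ± 472), Adh1 (1002 ± 346), Cat (412 ± 78.7), Aldh2 (250 ± 22.2) and Aldh1a1 (136 ± 31.0). Catalase and Adh1 thus changed places, and their ranges did not overlap in either group.

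Lower in the order, Adh4 moved from sixth place in Control (78.1 ± 4.87 FPKM, above Adh5 at 55.6 ± 3.19) to eighth in ethanol (14.5 ± 8.92, below Adh5 at 53.3 ± 4.78). Aldh1b1 went from 38.2 ± 2.28 to 9.27 ± 1.36 FPKM and Acss2 from 34.0 ± 10.2 to 5.41 ± 1.14 FPKM, where it was last. In Control, Aldh3a2 (36.8 ± 3.69) could not be placed apart from Aldh1b1 above it or Acss2 below it, and in ethanol, Adh4 could not be placed apart from Aldh3a2 (24.95 ± 12.2) or Aldh1b1. On FPKM the Control mean was above the ethanol mean for 8 of the 10 genes, with Cyp2e1 and Adh1 the exceptions. All genes shifted the same way on this scale, with a median log2 fold change of -0.61 by limma on log2(FPKM + 0.1). The matching share of all genes was not computed, so this count is not read as a result about the enzymes. Together the 10 genes made up 0.856% to 1.29% of the summed FPKM in ethanol livers and 1.00% to 1.16% in Control livers, so their total share overlapped while its makeup differed.

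**Figure D4:**
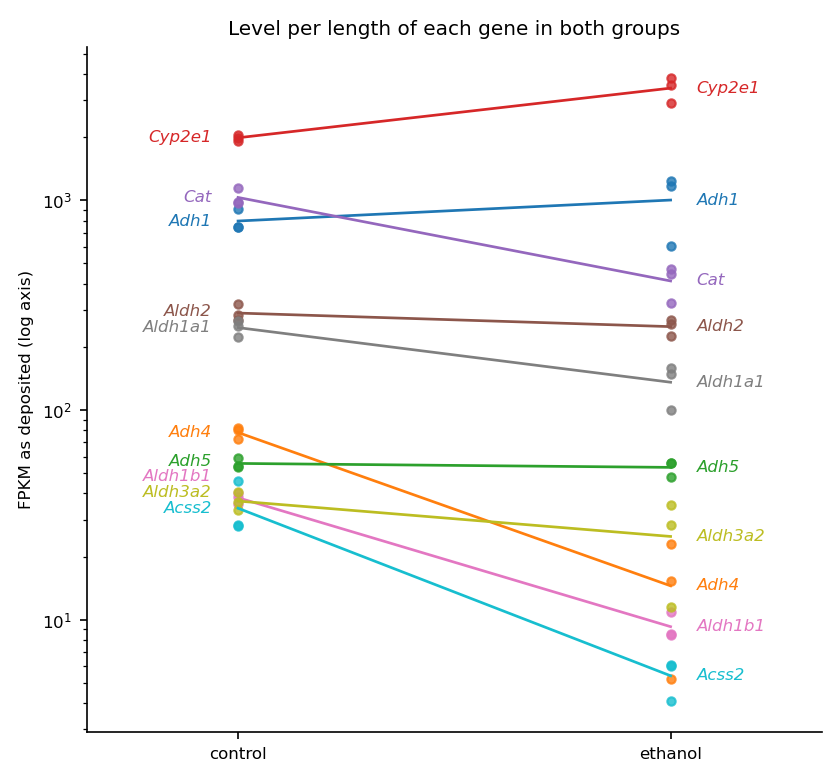
Deposited FPKM (vertical log axis) of the 10 enzyme genes in Control and ethanol livers, 1 point per library, with lines joining the group means. Cyp2e1 leads in both groups, Cat and Adh1 cross (1031 and 796 FPKM in Control, 412 and 1002 in ethanol), and Adh4, Aldh1b1 and Acss2 drop most steeply.

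The spread between mice was wider in ethanol for 8 of the 10 genes. Over all genes tested, too, libraries were less alike in ethanol (correlations of log2 CPM 0.9686 to 0.9897) than in Control (0.9897 to 0.9932). The share of all genes with a wider spread in ethanol was not computed, so the count is not read as particular to the enzymes. The coefficient of variation was 58.1% for Adh4, 45.9% for Aldh3a2 and 33.3% for Adh1 in ethanol, against 6.48%, 9.78% and 11.4% in Control. Acss2 was an exception, with 19.4% in ethanol and 29.7% in Control, and Aldh2 was the other. In ethanol replicate 3, Aldh3a2 held 0.381 times and Adh1 0.527 times the mean of the other ethanol livers, while Adh5 (0.893 times) and Aldh2 (0.901 times) lay close to them. That liver also had the highest summed FPKM of 8 neutrophil markers, 13.99, where the lowest ethanol library had 2.34 and Control 0.473 to 0.704. Of these, S100a9 had 48, 103 and 339 counts in ethanol and 23, 9 and 15 in Control, and S100a8 had 33, 40 and 160 in ethanol and 0, 0 and 4 in Control. Only 4 of the 8 markers (S100a8, S100a9, Cxcr2 and Retnlg) passed the filter on low counts. With so few counts in Control they did so through the ethanol libraries, so no fold change or p-value is given for them. Their calls enter only the totals over all lists given below. Mpo was at 0 in all 3 ethanol libraries. The part of these cells in the spread was not tested.

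Genes of related steps and routes were read from lists of known members. Together with the cell type markers the lists held 225 other genes tested, of which 41 were called higher and 30 lower. Of all genes tested, 10.4% were called higher and 13.8% lower. By library size alone 846 of the 16717 were called higher and 5385 lower, and on hepatocyte markers 731 and 6487. Without ethanol replicate 3 these were 1920 and 2902 of 17622. A list count near the share of its setting is not read as a result about the list. Calls that held under all 6 scalings numbered 19 higher and 25 lower, and genes named below are marked where theirs did not. The 41 include Adh6b and 4 neutrophil markers, and the 19 include the same 4 markers. These genes passed the filter on low counts through the ethanol libraries, so their calls are not read as results. Among the partners of CYP2E1, Por, the reductase that feeds electrons to every microsomal P450, had 1076 ± 120 CPM in ethanol and 86.0 ± 9.56 in Control (log2 fold change 3.64 ± 0.15, adjusted p = 4.51e-05), and it was 2.98 by library size alone. Cyb5b, the cytochrome b5 of the outer mitochondrial membrane, fell (-1.93 ± 0.17, adjusted p = 0.000328). The microsomal Cyb5a was called higher (1.08 ± 0.10, adjusted p = 0.000416). It was not called with upper quartile factors (0.98), by library size alone (0.41) or on hepatocyte markers (0.25). Cyp3a11, the most abundant of the 8 genes in this list and another P450 with ethanol-oxidizing activity, was at 0.25 ± 0.13 (adjusted p = 0.17) with TMM and at -0.42 by library size alone. In all, 3 of these 8 genes were called higher and 1 lower, with a median of 0.24, and 1 and 1 by library size alone.

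Of 12 other aldehyde dehydrogenase genes tested, none was called in either direction by edgeR, DESeq2 or limma-voom, and their median log2 fold change was -0.02. By these tools 5, 5 and 6 had an unadjusted p under 0.05. An adjusted p under 0.05 was reached by 4 genes with each tool, all short of the fold threshold. At the adjusted p alone, edgeR passed 21.5% of all genes in each direction. By library size alone 4 of the 12 were called lower, as were 4 on hepatocyte markers and 1 with upper quartile factors. Among the 15 tested without ethanol replicate 3, 1 was called lower, as was 1 of the 13 tested without ethanol replicate 1. Aldh1l1, the cytosolic enzyme of folate metabolism and the most abundant of them, was at 0.74 ± 0.18 (adjusted p = 0.0144), and at 0.06 by library size alone. Among 8 peroxide-producing oxidases, whose product catalase removes, 1 was called lower: Paox, which oxidizes acetylated polyamines (3 were called lower by library size alone), went from 45.9 ± 1.42 to 11.2 ± 1.04 CPM (-2.04 ± 0.11, adjusted p = 7.45e-05).

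Both dehydrogenase steps reduce NAD+, and the shuttles that return NADH electrons to mitochondria were read for this reason. Of 13 genes tested, 2 were called higher and none lower, with a median of 0.32 (1 and 1 by library size alone). Got1, the cytosolic aspartate aminotransferase of the malate-aspartate shuttle, had 1869 ± 440 CPM in ethanol and 135 ± 25.2 in Control (3.79 ± 0.24, adjusted p = 9.93e-05), and 3.13 by library size alone. Slc25a12, a mitochondrial aspartate-glutamate carrier, was at 1.02 ± 0.15 (adjusted p = 0.00211). It lost the call with upper quartile factors (0.92), by library size alone (0.34) and on hepatocyte markers (0.17). The call was also lost without ethanol replicate 3 or Control replicate 3 (0.93 in each).

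Beside Acss2, 10 genes that handle acetate and acetyl-CoA included 2 called higher and 3 called lower, with a median of -0.29 (0 and 5 by library size alone). The lower ones were Acat2 (-1.69 ± 0.13, adjusted p = 0.000187), which condenses acetyl-CoA in the cytosol, Acacb (-1.30 ± 0.20, adjusted p = 0.0025), an acetyl-CoA carboxylase, and Acly (-1.33 ± 0.40, adjusted p = 0.0319), which makes acetyl-CoA from citrate. Acly lost its call when the trend with transcript length was removed and in all fits that left out 1 library except that without ethanol replicate 2 (adjusted p = 0.0651 without ethanol replicate 1, 0.112, 0.0618 and 0.0547 without Control replicates 1 to 3, and a log2 fold change of -0.99 without ethanol replicate 3). Acly and Acacb are also 2 of the 14 SREBP1 lipogenic genes, of which 1 was called higher and 2 lower, against 4 higher and 1 lower without ethanol replicate 3 and 1 higher and 5 lower by library size alone. The genes of acetate handling called higher were Slc16a7 (1.39 ± 0.13, adjusted p = 0.000355), a monocarboxylate transporter, and Acot12 (1.16 ± 0.19, adjusted p = 0.00351), which splits acetyl-CoA back to acetate. Both lost the call by library size alone (0.73 and 0.49) and on hepatocyte markers (0.57 and 0.35). Acss1, the mitochondrial acetyl-CoA synthetase, was barely present in either group, at 0.187 ± 0.0959 CPM in ethanol and 0.186 ± 0.107 in Control.

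The cholesterol synthesis genes driven by SREBP2 moved in the direction of Acss2. Of 16 tested, 12 were called lower and none higher, beside the 13.8% of all genes called lower, and their median was -1.39. Without ethanol replicate 3, 9 were called lower and 2 higher, and without Control replicate 1, 9 were called lower and 0 higher. Hmgcs1, which makes HMG-CoA, had the largest fall (-3.37 ± 0.16, adjusted p = 5.92e-05), and 9 of the 12 calls held under all 6 scalings. Insig1, which had the highest FPKM of the list over all 6 libraries together (Sc5d was higher in Control, at a mean of 146.1 FPKM against 131.6) and holds SREBPs in the endoplasmic reticulum, had 703.8, 644.6 and 75.3 CPM in ethanol and 360.5, 344.8 and 330.2 in Control (0.46 ± 0.67, adjusted p = 0.605, and -0.19 by library size alone). Its ethanol livers lay on both sides of Control, with replicate 3 below, and without that library the log2 fold change was 0.98 ± 0.08 (adjusted p = 8.54e-05). This list was chosen with earlier results of these livers known and is not independent evidence of a direction.

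**Figure D5:**
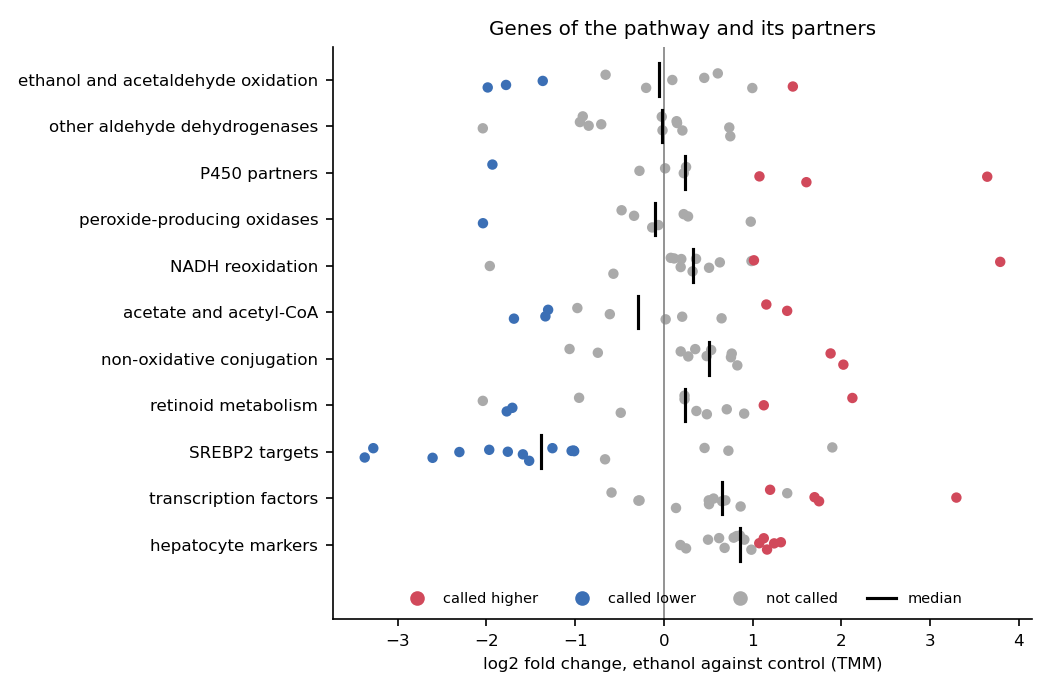
Log2 fold change (horizontal axis, TMM scaling) of the tested genes of each list, 1 point per gene, red where called higher, blue where called lower and grey where not called, with a black bar at the median of the list. The 10 enzyme genes spread to both sides of 0 with a median of -0.05, and SREBP2 targets lie mostly to the left (median -1.39).

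Transcription factors known to act on these genes or their cell type, 15 in all, included 4 called higher and none lower. The counts were 5 and 1 without ethanol replicate 3, 2 and 1 by library size alone and 1 and 3 on hepatocyte markers. Cebpb had the largest rise, from 72.1 ± 6.48 to 708.8 ± 113.8 CPM (3.30 ± 0.16, adjusted p = 6.4e-05), and it held under all 6 scalings. Hnf4a, a main factor of hepatocyte identity, was at 0.69 ± 0.11 (adjusted p = 0.00243) but at 0.02 by library size alone, and Srebf2 (-0.27 ± 0.12) did not pass the test with TMM but was at -0.94 by library size alone (adjusted p = 0.00116) and was called lower on the hepatocyte markers (-1.09, adjusted p = 0.00314).

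Cyp2e1 and Aldh1a1 are hepatocyte genes with higher levels around the central vein, and genes of that zone were compared with those of the portal zone. Of 12 pericentral genes, 2 were called higher and 2 lower, with a median of 0.18 (0 and 3 by library size alone). Lgr5 (-3.61 ± 0.42, adjusted p = 0.000895) and Axin2 (-1.67 ± 0.25, adjusted p = 0.00208), targets of the Wnt signal that patterns this zone, fell. Slc1a2, also of this zone, was called higher (1.05, edgeR adjusted p = 0.0165). Its call was lost with upper quartile factors (0.95), by library size alone (0.38) and on hepatocyte markers (0.25). Cyp27a1, which makes oxysterols and bile acids, was at 1.26 ± 0.12 (adjusted p = 0.00037) and at 0.59 by library size alone, and the glutamine synthetase Glul was at -0.10 ± 0.23 (adjusted p = 0.748). Of 12 periportal genes, 4 were called higher and none lower, with a median of 0.27 (2 and 2 by library size alone, and 5 and 0 without ethanol replicate 3), led by the serine dehydratase Sds (3.69 ± 0.17, adjusted p = 5.61e-05). The fasting response list of 13 genes had 4 called higher and 1 lower, but 1 was higher by library size alone, 0 on hepatocyte markers and 7 without ethanol replicate 3. In this list were Angptl4, an inhibitor of lipoprotein lipase, at 1.75 ± 0.16 (adjusted p = 0.000342, and 0.91 when scaled on hepatocyte markers) and the glucose-6-phosphatase gene G6pc1 at -2.89 ± 0.50 (adjusted p = 0.00374). Their part in the enzyme results was not tested.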

How the data were processed

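The authors deposited, for each gene and library, a raw count of reads (whole numbers) and an FPKM value, which is scaled to transcript length and library total. The aligner, the counting software and the use of strand are not given in the sources used here. The submitters' processing notes name GRCm38 and mm10, which the table's coordinates do not match. The table held 1 column of counts that belongs to no library of the study and was not used. Counts were filtered with filterByExpr, scaled by TMM and compared by edgeR's quasi-likelihood test (edgeR 4.0.16, R 4.3.3), two-sided and without covariates. The SE is the log2 fold change divided by the square root of F. DEGs changed by more than 1 on the log2 scale with a Benjamini-Hochberg adjusted p below 0.05. Alternatives used limma 3.58.1 and DESeq2 1.42.0. Scripts were tested on simulated data. Libraries of a group differed by more than counting noise (chi-square over degrees of freedom, 53.9 to 545).

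Members and lists were chosen with earlier results of these data known. Named genes are the 10 enzyme genes, the largest rise, largest fall and most abundant gene of each list, the nearest genes by pattern of each called enzyme and genes overlapping an enzyme gene. Adh6a, Apoa1, Cxcr2, Retnlg, Mpo, Cyb5a, Slc25a12, Acacb, Acly, Acot12, Acss1, Hnf4a, Srebf2, Axin2, Slc1a2, Glul, Ces1d and Rdh11 are list members named after their values were seen. Promoters matched 9 of the 10 enzyme genes by symbol. Not every list result is reported, and some genes that the rule names are not reported here.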

Additional observations from a re-analysis of the deposited data

How the results depend on the processing

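Acss2 and Aldh1b1 kept their direction and call in all 21 alternatives, and Adh4, Cyp2e1, Cat, Adh1 and Aldh1a1 kept their direction. Adh4 lost its call in 3 of 6 leave-one-out fits (-2.22 to -1.38 over all 6). In the order library size alone, hepatocyte markers, limma on log2(FPKM + 1), log2(FPKM + 0.1) and log2(TPM + 1), the values were -0.059, -0.22, -0.064, -0.065 and -0.21 for Adh5, -0.21, -0.37, -0.21, -0.21 and -0.36 for Aldh2, and -0.56, -0.68, -0.67, -0.70 and -0.83 for Aldh3a2, all reversed. Aldh3a2 also reversed at a mean FPKM of at least 5 (-0.19), with limma-voom (-0.032), with the replicate block (-0.027), and over leave-one-out fits ranged from -0.18 to 0.44. Under the same 5 settings, no enzyme gene was called higher (0), and under TPM 5 were called lower. There were 2 called higher, Adh1 joining Cyp2e1, with RLE factors, with the length trend removed, with overlapping genes summed, and in the leave-one-out fits without ethanol replicate 3 or Control replicate 1 (range 1 to 2), and 4 at the adjusted p alone. Over all genes, 846 were called higher and 5385 lower by library size alone, 731 and 6487 on hepatocyte markers, 429 and 443 at a mean FPKM of at least 5, 752 and 4965 with log2(FPKM + 0.1), 450 and 3633 with log2(TPM + 1), 408 higher with log2(FPKM + 1), and 3598 and 3591 at the adjusted p alone. Companion genes called numbered 21 higher and 62 lower by library size alone and 19 and 71 on hepatocyte markers. Both higher counts include the 4 neutrophil markers that passed the filter through the ethanol libraries, whose calls are not read as results.

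Replicate numbers did not pair the libraries (correlations of -0.0415, -0.0267 and -0.00753), and the replicate block gave 1518 genes higher and 2000 lower and changed no enzyme's call. Values fell with transcript length over all genes, from a median log2 fold change of 0.54 in transcripts under 1000 bases to -0.17 in the longest class, and its cause was not tested. The 3 livers per group, more than depth, limit these results.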

Other observations

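Other routes for ethanol and retinol were read from lists. Of 12 genes for non-oxidative conjugation of ethanol, 2 were called higher and none lower, with a median log2 fold change of 0.51 (2 and 2 by library size alone, and 2 and 1 without ethanol replicate 3). Sult1a1, a sulfotransferase, rose from 179 ± 21.5 to 728.2 ± 286.9 CPM (2.02 ± 0.27, edgeR adjusted p = 0.00147), and Ces1d, a carboxylesterase that can form fatty acid ethyl esters, rose from 421.6 ± 80.6 to 1551 ± 291.3 CPM (1.88 ± 0.20, adjusted p = 0.000606), both under all 6 scalings. Ces1c, the most abundant of the list, was at 0.77 ± 0.12 (adjusted p = 0.00295), at 0.10 by library size alone and at -0.05 on hepatocyte markers. The carboxylesterase genes are close paralogs, and counts may be split among them.

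Adh4 and Aldh1a1 also act on retinoids. Of 13 genes of retinoid metabolism tested, 2 were called higher and 2 lower (1 and 4 by library size alone, and 3 and 3 without ethanol replicate 3). Dhrs3, which reduces retinal to retinol, fell (-1.77 ± 0.11, adjusted p = 9.84e-05), as did the retinal reductase Rdh11 (-1.71 ± 0.17, adjusted p = 0.000504). Cyp26a1, which degrades retinoic acid, rose from 20.8 ± 4.20 to 90.6 ± 49.2 CPM (2.12 ± 0.46, adjusted p = 0.009), with a wide spread in ethanol. Rbp4, the retinol carrier of the blood, was at 1.13 ± 0.12 (adjusted p = 0.000693) and at 0.46 by library size alone.

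The genes whose log2 CPM pattern over the 6 libraries lay nearest to each called enzyme were, by root mean square distance, Prok1 (0.0367) and Hsd3b2 (0.147) for Adh4, Enpp2 (0.0436) and Kin (0.0468) for Cyp2e1, 2810459M11Rik (0.0424) and Septin9 (0.0586) for Aldh1b1, and Arhgap6 (0.0879) and Gm8941 (0.111) for Acss2. Fitted log2 fold changes were -2.21 for Prok1 and -1.77 for Hsd3b2 (Adh4 -1.78), and 1.38 for Enpp2 and 1.54 for Kin (Cyp2e1 1.45). They were -1.37 for 2810459M11Rik and -1.38 for Septin9 (Aldh1b1 -1.36), and -2.73 for Arhgap6 and -2.40 for Gm8941 (Acss2 -1.98). A constant was added to CPM before the log, which shrinks differences at low CPM, so near patterns can differ in fold change. The points are the same 6 libraries in 2 groups for every gene, and the distance was not tested.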
